A study of Xenopus tropicalis with 3 samples.

Results

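On chromosomes 1 to 10, 1955 of 3376 stage 61 peaks (57.9%, 56.2 to 59.6) shared no base with any stage 56 peak. These 1955 peaks of accessible chromatin are described here as unmatched peaks, and the other 1421 as matched peaks. They come from the urostyle of Xenopus tropicalis tadpoles at stage 61, are set against stage 56, and make up 1955 of 322995 peaks in the 3 lists of the series. The third list, of stage 65, uses other chromosome names and was not compared by position. Each stage had 1 library from tissue labelled urostyle, and the labels give no strain, age, treatment, pooling or number of animals for either stage. The labels describe dissection and crushing of the tissue, while the series text speaks of laser capture. No gene annotation of these coordinates was used here, so the tissue label could not be set against marker genes and no peak is assigned to a gene.

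In frogs the urostyle is an unsegmented bony rod behind the last vertebra, formed during metamorphosis from caudal vertebral elements and the cartilage beneath the notochord while the tail regresses. Thyroid hormone drives these changes, acting through nuclear receptors that bind DNA and recruit enzymes that modify chromatin. ATAC-seq marks accessible DNA by the cuts of a transposase. Promoters, enhancers and other bound elements usually appear as narrow peaks, and copies of a repeated sequence can appear as clusters of peaks.

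The unmatched peaks were chosen by position, from the same libraries that give every value below. Their number, and whatever follows from it, is thus a description of 2 peak lists and no test between stages was made. With 1 library per stage there was no replicate check. Intervals are exact Clopper-Pearson 95% intervals, or exact binomial intervals for medians, and cover counting error only. Neighbouring peaks are not independent of each other, so real uncertainty is wider. In the other direction, 21.0% of placed stage 56 peaks (386 of 1836) had no stage 61 overlap.

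Few peaks lay close to the threshold of the rule. The nearest unmatched peak lay 9 bp from a stage 56 peak, followed by peaks at 72 and 92 bp. Among matched peaks the smallest overlaps were 57, 88 and 88 bp. Just 3 unmatched peaks had a stage 56 peak within 100 bp, and within a list no peaks were closer than 101 bp at either stage.

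Most unmatched peaks were low and narrow, with a small tail of strong ones. Peak height could be read in both lists, because each deposited −log10 p equalled the upper tail of a log-normal distribution at a whole-number pileup, within 9.7e-07. The pileup is the number of overlapping fragments or cut-site intervals at the summit, and the labels do not say which of these was counted. The summit pileup of unmatched peaks ran from 137 to 852 with a median of 186 (184 to 188). That of matched peaks ran from 140 to 2394 with a median of 250 (241 to 257). A pileup of 400 or more was reached by 41 unmatched peaks (2.10%, 1.51 to 2.83) and by 293 matched peaks (20.6%, 18.5 to 22.8).

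Width and area followed the same order. Unmatched peaks were 84 to 2369 bp wide, with a median of 310 bp (303 to 319), against 104 to 13785 bp and a median of 467 bp (455 to 481) for matched peaks. The area, the deposited signal value that grows with both width and height, had a median of 85.2 (79.8 to 89.8) in unmatched peaks and 235 (217 to 254) in matched peaks. Unmatched peaks covered 720 kb in all and matched peaks 885 kb. Unmatched peaks thus held 44.9% of the length and 29.9% of the area of placed stage 61 peaks. A wide peak has more bases on which to meet another, so these differences are partly set by the rule. Summits lay near the middle of the peak in both sets, at a median of 48.1% of the width in unmatched peaks and 49.2% in matched peaks.

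**Figure D1:**
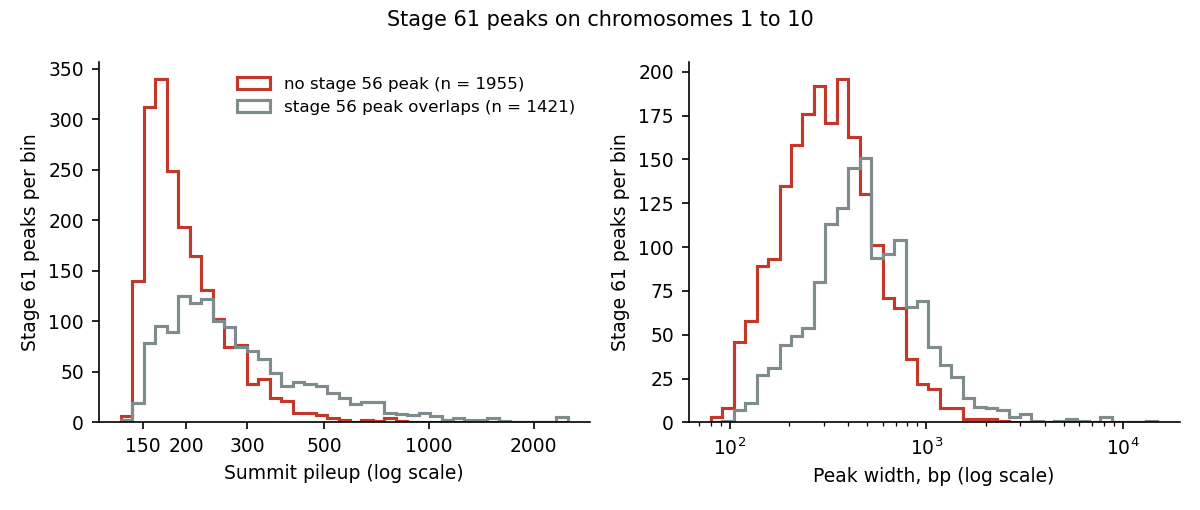
Histograms of summit pileup (left) and peak width in bp (right) of stage 61 peaks on chromosomes 1 to 10, both on log axes. Red is the 1955 peaks with no stage 56 overlap and grey the 1421 with one. The red curves sit to the left, with medians of 186 against 250 for pileup and 310 bp against 467 bp for width.

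The share without a stage 56 partner fell along the range of pileup but did not vanish. Of placed stage 61 peaks with a pileup below 150, 99 of 115 were unmatched (86.1%). The share was 74.9% from 150 to below 200, 48.4% from 250 to below 300 and 15.4% from 400 to below 600. At 600 and above, 8 of 120 peaks were unmatched (6.67%, 2.92 to 12.7).

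How high a site had to stand to be called differed between the libraries. The fitted log-normal had a mean of 5.999 at stage 61 and 10.7 at stage 56, which is taken here as the background pileup over the genome. The smallest pileup of any called peak was 137 at stage 61 and 176 at stage 56, or 22.8 and 16.4 times background. On chromosomes 1 to 10 the smallest stage 56 pileup was 177. Read as raw pileup, 1157 unmatched peaks (59.2%, 57.0 to 61.4) reached that level, among 2383 of all 3376 placed stage 61 peaks. Unmatched peaks made up 48.6% of those 2383, against 57.9% of the whole list. The median placed stage 56 peak was exceeded by 304 unmatched peaks (15.5%) in raw pileup and by 601 (30.7%) in area. For −log10 p the count was 461 (23.6%) and for −log10 q 438 (22.4%). Read as a multiple of each library's background, all 1955 exceeded the smallest placed stage 56 peak, and 98.0% exceeded the median one. The lowest stage 61 call stood at 22.8 times background, above the smallest placed stage 56 peak (16.5) and near the median one (24.3). The calling floors thus set this reading, and every stage 61 peak, matched or not, passes the smallest. Neither pileup scale made the matched sites equal. Over the 1421 matched peaks, each paired with its highest stage 56 partner, the median ratio of stage 61 to stage 56 was 0.89 for raw pileup (quartiles 0.68 and 1.07) and 1.60 for pileup over background (1.21 and 1.90). Taking the highest partner can lower these ratios, and a wide stage 56 peak can be the partner of several stage 61 peaks. If unmatched pileups are divided by 0.89, 1633 (83.5%, 81.8 to 85.1) reach 177. The same count over all placed stage 61 peaks was not made. Before division, the 10th percentile of pileup was 154 for unmatched peaks, 157 for all placed stage 61 peaks and 168 for matched ones. The ratio itself comes only from sites called at both stages. The stage 56 pileup at unmatched sites was not analysed here, so these counts say how many unmatched peaks were high enough on each scale, and not whether the site was closed at stage 56. Their number therefore depends on the scale.

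Unmatched peaks lay on every chromosome from 1 to 10, and chromosomes 2 and 3 had the largest shares. On chromosome 3, 217 of 311 stage 61 peaks were unmatched (69.8%, 64.3 to 74.8). Chromosome 2 followed with 295 of 428 (68.9%, 64.3 to 73.3), or 257 of 390 (65.9%, 61.0 to 70.6) without the longest run of unmatched peaks described below. Chromosome 9 had the smallest share, 180 of 383 (47.0%, 41.9 to 52.1), and chromosome 6 the next, 227 of 439 (51.7%, 46.9 to 56.5). The intervals of chromosomes 2 and 3 did not meet those of chromosomes 1, 4, 5, 6, 7 or 9, and did meet those of chromosomes 8 and 10. Without that run, the interval of chromosome 2 also met those of chromosomes 1 (51.6 to 61.3) and 7 (48.7 to 62.4). These intervals treat neighbouring peaks as independent and cover counting error only, so chromosomes were not tested against each other. Median pileup hardly differed, at 179.5 to 197 for unmatched peaks over the 10 chromosomes.

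Counted per length, the order was different. The densest chromosomes were 10 and 9, the shortest of the set, with 2.71 and 2.24 unmatched peaks per Mb of the extent up to the last peak. Chromosome 7 was the sparsest at 1.02, and the 10 chromosomes together had 1.54 unmatched and 1.12 matched peaks per Mb. Chromosome 9 alone had more matched than unmatched peaks per Mb, 2.24 unmatched and 2.53 matched. On chromosome 3 the values were 1.58 unmatched and 0.69 matched.

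**Figure D2:**
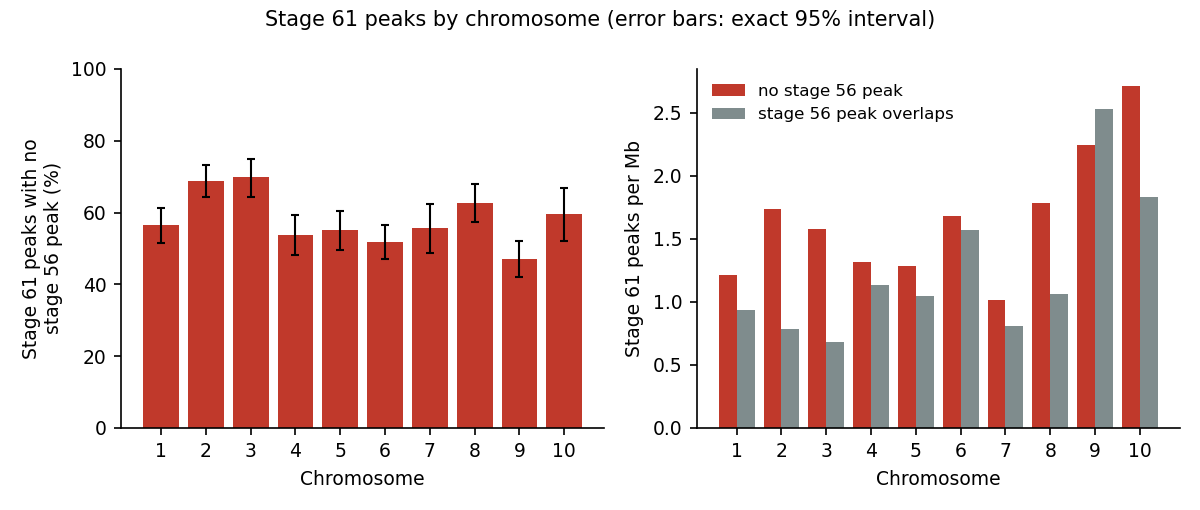
Left, percent of stage 61 peaks on each chromosome with no stage 56 overlap, with exact 95% intervals of counting error. Right, peaks per Mb, with peaks lacking a stage 56 overlap in red and those with one in grey. Chromosomes 2 and 3 have the highest shares (68.9% and 69.8%), and chromosome 9 is the one where grey exceeds red.

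Along the chromosomes, unmatched peaks gathered toward both ends. The first and last 10% of the extents held 1034 of 1955 unmatched peaks (52.9%, 50.6 to 55.1), 535 of 1421 matched peaks (37.6%, 35.1 to 40.2) and 617 of 1836 stage 56 peaks (33.6%, 31.4 to 35.8). This is a density of 4.07 unmatched peaks per Mb in the outer stretches and 0.91 per Mb inside them, against 2.10 and 0.87 for matched peaks. The outer share was larger for unmatched than for matched peaks on 9 of 10 chromosomes. Chromosome 8 was the exception, with 54.3% of unmatched and 74.4% of matched peaks in its outer stretches. The contrast was widest on chromosome 6, with 51.5% of unmatched peaks against 17.9% of matched peaks.

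Crowding changed this picture. Among isolated peaks, those with no other placed stage 61 peak within 50 kb, the order reversed, with 453 of 952 unmatched (47.6%, 44.4 to 50.8) and 203 of 334 matched peaks (60.8%, 55.3 to 66.0) in the outer stretches. Matched peaks away from the ends were mostly crowded ones. Of 1177 inner stage 61 peaks with a neighbour within 50 kb, 422 were unmatched (35.9%, 33.1 to 38.7), whereas of 630 isolated inner peaks 499 were (79.2%, 75.8 to 82.3). In the outer stretches the shares were 63.6% for crowded and 69.1% for isolated peaks. The end-ward excess of unmatched over matched peaks thus rests on crowded peaks. Isolated unmatched peaks by themselves also gathered at the ends, with 453 in 254 Mb of outer stretches and 499 in the 1017 Mb inside. Split by pileup, the unmatched share was higher in the outer than in the inner stretches in 6 of 7 classes, for example 87.5% and 64.6% for pileups of 150 to below 200, and lower in the class of 600 and above (1 of 56 and 7 of 64).

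**Figure D3:**
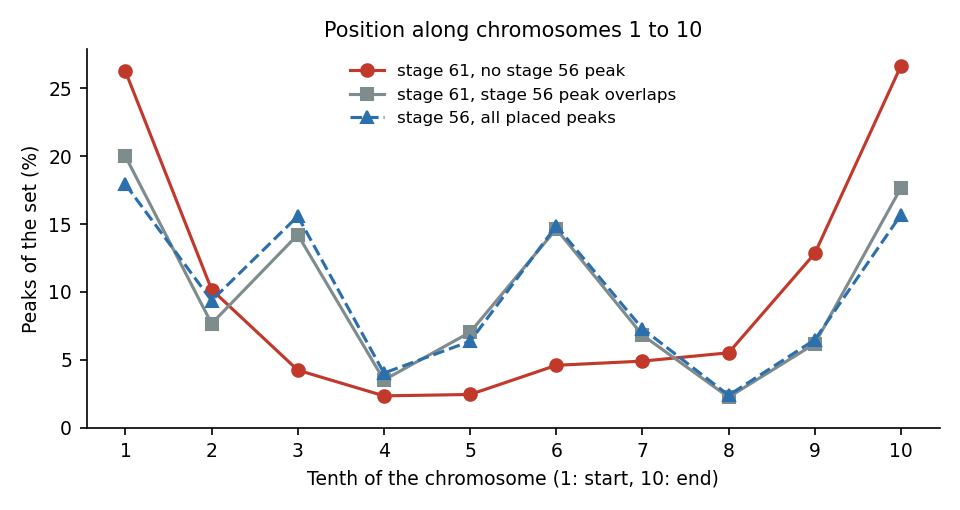
Percent of each set of peaks in 10 equal parts of the chromosome extent, pooled over chromosomes 1 to 10, for stage 61 peaks without (red) and with (grey) a stage 56 overlap and for all placed stage 56 peaks (blue). The red line is highest at both ends, 26.2% and 26.6%, and lacks the inner maxima in parts 3 and 6 that the other lines share.

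Unmatched peaks were widely spaced. The median gap from an unmatched peak to the next one on the chromosome was 179 kb (166 to 200.3 kb), with quartiles of 39.6 and 573 kb. To the nearest stage 61 peak of either kind the median was 44.4 kb for unmatched peaks and 1.94 kb for matched peaks. Isolated peaks made up 952 of 1955 unmatched peaks (48.7%, 46.5 to 50.9) and 334 of 1421 matched peaks (23.5%, 21.3 to 25.8). At the other extreme, 352 unmatched peaks (18.0%, 16.3 to 19.8) and 551 matched peaks (38.8%, 36.2 to 41.4) had a stage 61 neighbour within 1 kb.

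Most unmatched peaks were far from any stage 56 peak, but stage 56 peaks were sparse, with 1836 over 1272 Mb. The rule also left out every distance of 0, and the distance from a random position was not computed. The median distance was 224 kb (205 to 249.8 kb), with quartiles of 57.4 and 787 kb. Only 92 (4.71%, 3.81 to 5.74) had a stage 56 peak within 1 kb and 256 (13.1%, 11.6 to 14.7) within 10 kb. In contrast, 1286 (65.8%, 63.6 to 67.9) lay more than 100 kb away and 395 (20.2%, 18.4 to 22.1) more than 1 Mb away. Of the 92 close ones, 79 (85.9%, 77.0 to 92.3) sat beside a stage 56 peak that overlapped another stage 61 peak. Most stage 56 peaks do so, since only 21.0% of all placed ones (386 of 1836) had no stage 61 overlap. The count of 79 is thus near what the whole stage 56 list gives.

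Unmatched peaks within 1 kb of a stage 56 peak had the lowest median pileup and the smallest median area, but not the smallest median width. The median pileup was 172 (167 to 178) within 1 kb of a stage 56 peak, 179 from 1 to 10 kb, 191 from 10 to 100 kb, 186 from 100 kb to 1 Mb and 188 (181 to 195) beyond 1 Mb. The median area was 62.7 (48.5 to 81.8) within 1 kb, 75.3 from 1 to 10 kb, 87.7 from 10 to 100 kb, 85.3 from 100 kb to 1 Mb and 94.4 (80.7 to 108) beyond 1 Mb. Median widths in these classes were 298.5 to 330 bp. The intervals beyond 1 Mb and within 1 kb did not meet for pileup, and overlapped slightly for area.

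The most remote unmatched peaks lay in the sparse middle of chromosomes 3 and 7. On chromosome 3, a peak at 60484323 to 60484479 was 14.8 Mb from the nearest stage 56 peak, with a width of 157 bp and a pileup of 321. Next to it on the same chromosome, 62788408 to 62788807 was 12.5 Mb away with a pileup of 218. The third, at 42239678 to 42240053 on chromosome 7, was 12.1 Mb away with a pileup of 172. They were also far from any other stage 61 peak, at 2304 kb for both peaks on chromosome 3 and 3668 kb for the peak on chromosome 7.

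**Figure D4:**
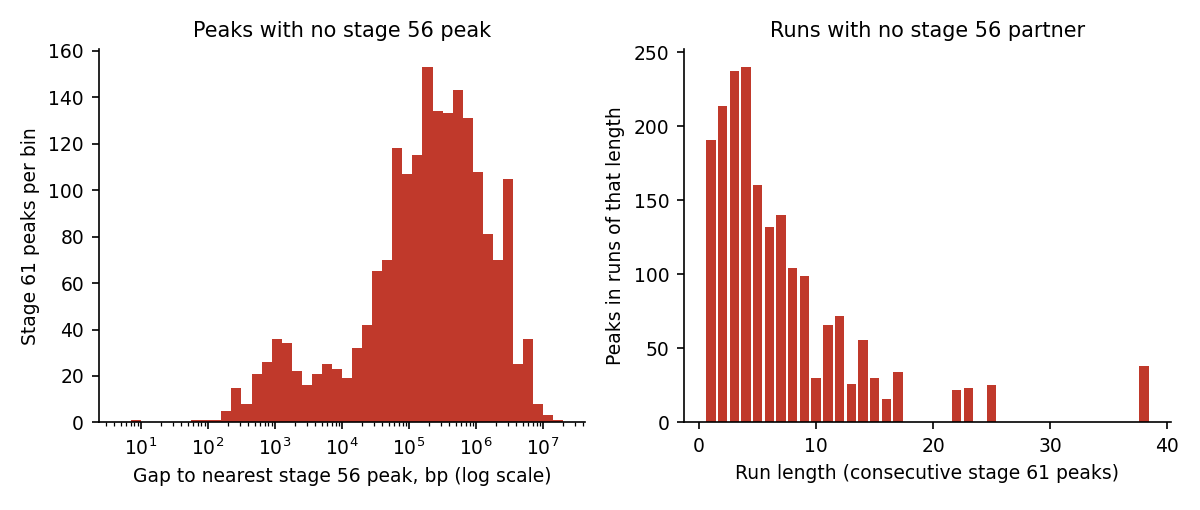
Left, gaps in bp from each of the 1955 unmatched peaks to the nearest stage 56 peak, on a log axis. Right, number of unmatched peaks in runs of each length, a run being consecutive stage 61 peaks on 1 chromosome that all lack a stage 56 overlap. Gaps centre on a median of 224 kb with a minor group near 1 kb, and the run of 38 peaks stands apart from the next at 25.

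Unmatched peaks followed each other along the chromosomes in 565 runs, a run being consecutive stage 61 peaks that all lacked a stage 56 overlap. Runs of 3 or more held 1550 unmatched peaks (79.3%, 77.4 to 81.1), and 191 stood alone in their run. Unmatched peaks form 57.9% of the list, and this count is set in part by that share. The nearest stage 61 neighbour of an unmatched peak was itself unmatched in 1412 cases (72.2%, 70.2 to 74.2). There were 30 runs of 10 or more, with 438 unmatched peaks. Matched peaks had 20 such runs with 365 peaks, and a longest run of 44.

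Long runs were of different kinds. The second longest, 25 peaks on chromosome 2 at 113889767 to 139979128, was spread over 26.1 Mb with a median gap of 537 kb, and 5 stage 56 peaks lay among its peaks without touching one. The third, 23 peaks on chromosome 6 at 96423565 to 109145360, spanned 12.7 Mb with a median gap of 468 kb and no stage 56 peak within it. Peaks covered 0.0305% and 0.0678% of these spans. By their median gaps, both are chains of widely spaced peaks.

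The longest run was a dense cluster. On chromosome 2 at 102068389 to 102162912, 38 unmatched peaks stood within 94.5 kb and covered 32.2% of it, with a median gap of 527 bp. No other stage 61 peak lay within 3.06 Mb on the left or 8.38 Mb on the right, and the nearest stage 56 peak was 3.04 Mb away. The peaks formed 4 blocks parted by gaps of over 10 kb. The first held 12 peaks over 15.8 kb, the second 5 over 7.15 kb, the third 10 over 14.4 kb and the fourth 11 over 16.3 kb. Peaks covered 51.5%, 50.7%, 52.4% and 68.4% of the blocks.

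Peaks of this cluster were wide and mostly higher than the median unmatched peak. Widths ran from 179 to 2147 bp with a median of 664.5 bp, and 10 of the 46 unmatched peaks wider than 1 kb belonged to it. Pileup ran from 146 to 497 with a median of 270, against a median of 186 and an upper quartile of 228 for all unmatched peaks. The highest and widest was at 102125228 to 102127374, with a pileup of 497 and an area of 2108, the second largest among all unmatched peaks. The next by area, at 102150620 to 102151974 in the fourth block, had a pileup of 456. Those at 102122317 to 102123734 and 102074630 to 102076615 had pileups of 379 and 305 and were also among the 10 largest areas. The cluster held 1.94% of unmatched peaks and 6.48% of their area. Whether this stretch of DNA is present in the same number of copies in both libraries was not tested.

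**Figure D5:**
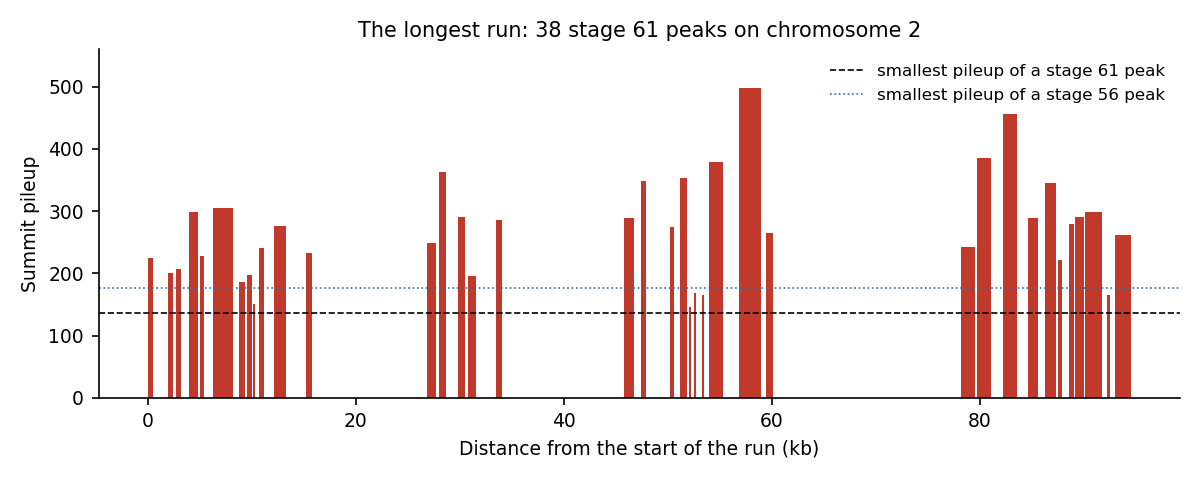
The 38 unmatched peaks of the chromosome 2 cluster, by distance in kb from its start. Each bar is a peak as wide as called, with its summit pileup as height. Dashed and dotted lines mark the smallest pileup of any called peak at stage 61 (137) and stage 56 (176), and the bars form 4 blocks with maxima of 305, 363, 497 and 456.

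By number of unmatched peaks in 200 kb, the chromosome 2 cluster (38) was followed by windows on chromosomes 9 (14) and 7 (12), which looked quite different. On chromosome 9, 40 stage 61 peaks lay between 42080780 and 42170657. Of these, 14 were unmatched and 26 matched, a smaller unmatched share than the 57.9% of all placed stage 61 peaks. Starts of the 40 peaks were 1808 bp apart at the median (quartiles 1684 and 2372 bp), and the 26 stage 56 peaks of the window were 1885 bp apart. Unmatched peaks there were lower than the matched ones, with median pileups of 173 and 192.5, and 10 of 14 lay within 2.5 kb of a stage 56 peak. Their pileups ran from 146 to 190, and their median was below 177, the smallest pileup of any placed stage 56 peak. Here unmatched and matched peaks stood side by side in the same stretch, and the spacing of each set by itself was not measured. On chromosome 7, between 97094510 and 97162457, 12 unmatched peaks stood among 5 matched ones, with median pileups of 207 and 295. That unmatched share was above 57.9%, on 17 stage 61 peaks.

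The 10 largest unmatched peaks fell mostly in 2 places, but the 100 largest did not. Of the 10 with the largest areas, 4 were in the chromosome 2 cluster and 4 in a stretch of chromosome 8 from 97806102 to 97912524, chosen with its values known as the stage 61 peaks around the largest one with gaps of at most 50 kb. Of the 100 largest, 15 were in the chromosome 2 cluster and 6 in the chromosome 8 stretch. The chromosome 8 stretch holds the largest of all, at 97878727 to 97880840, with an area of 3500, a width of 2114 bp and a pileup of 743. It began 72 bp from a stage 56 peak at 97878173 to 97878654 with a pileup of 503. Another, at 97898399 to 97899361, had a pileup of 772 and lay 9 bp from a stage 56 peak. Those at 97832622 to 97833686 and 97911437 to 97912524 had pileups of 792 and 764. In that stretch of 106 kb, 8 of 12 stage 61 peaks were unmatched, against 57.9% of all placed ones. Of its 10 stage 56 peaks, 5 had no stage 61 overlap, against 21.0% of all placed ones. Just past its end, 92 bp from its last peak, a stage 56 peak at 97912617 to 97913621 had a pileup of 1001 and no stage 61 overlap. Its unmatched peaks had pileups of 378 to 792 and a median distance of 1249 bp to stage 56.

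Both places differ in form. In the chromosome 8 stretch unmatched peaks were tall, with a median pileup of 613.5, and close to stage 56 peaks. The 10 stage 56 peaks of that stretch were tall too, with a median pileup of 528, against 260 for all placed stage 56 peaks. In the chromosome 2 cluster unmatched peaks were lower, with a median of 270, and megabases from any stage 56 peak.

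Other strong unmatched peaks lay outside both places. The highest pileup of all, 852, belonged to a peak of only 381 bp on chromosome 2 at 144971476 to 144971856, 892 kb from the next stage 61 peak and 1.21 Mb from stage 56. On chromosome 8, the peak at 82159913 to 82160599 had a pileup of 797 and lay 687 kb from any other peak of either stage. Further along, the peak at 97695541 to 97696320 had a pileup of 683 and lay 19.8 kb from a stage 56 peak and 110 kb from the next stage 61 peak. On chromosome 5, the peak at 15817828 to 15819190 was 1363 bp wide with a pileup of 339, 57.3 kb from the next stage 61 peak, and the one at 145790129 to 145790988 reached 680, 86.3 kb from the next peak of either stage. All 5 pileups were above the smallest stage 56 pileup of 176.

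The widest unmatched peaks differed in height. The widest, 2369 bp on chromosome 2 at 26237347 to 26239715, had a pileup of 274 and lay 3.02 Mb from stage 56. The next widest were the peaks of largest area in the chromosome 2 cluster (2147 bp, pileup 497) and in the chromosome 8 stretch (2114 bp, pileup 743). Outside the 10 largest areas the next were on chromosome 8 at 117283720 to 117285574 (1855 bp, pileup 255) and chromosome 7 at 2404362 to 2406006 (1645 bp, pileup 369). Both had another stage 61 peak within 1 kb.

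The strongest unmatched peak of the remaining chromosomes had an area between 738 and 1029. It was at 6287169 to 6287880 on chromosome 1 (pileup 486), at 4164907 to 4165891 on chromosome 3 (334) and at 10609509 to 10610656 on chromosome 4 (439). On chromosome 6 it was at 124960798 to 124961710 (435), on chromosome 9 at 79365452 to 79366254 (481) and on chromosome 10 at 32273663 to 32275114 (308). All 6 lay between 28.5 and 672 kb from a stage 56 peak.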

How the data were processed

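ATAC-seq peak lists of 1 library per stage were used as deposited. Per the submitters' processing notes, the tools included Bowtie2, Picard, MACS2 and Genrich; no role or version is stated, and neither are build, filters or calling settings. The deposited signal value of stages 61 and 56 is a peak area, and the deposited score equalled 1000 times area over width, with a cap of 1000 and a tolerance of 1 unit, in 100% of peaks. The deposited −log10 p and −log10 q values refer to the summit. From the −log10 p, a log-normal tail was fitted to the 773 levels of stage 61 and the 823 of stage 56. All values then came within 0.05 of a whole pileup. This gives heights, but the total reads per library are not known from it. The stage 65 list was only counted (its deposited −log10 q column was read).

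Coordinates are 1-based, in the files' own system. A gap is the number of bases between 2 peaks. Chromosome extents end at the last peak of stages 61 and 56. Peaks named by position are the 10 unmatched peaks of largest area, the 3 widest and 3 of highest −log10 p among the rest, the 3 farthest from and 3 nearest to a stage 56 peak, the largest of each chromosome, the 3 longest runs and the 3 windows of 200 kb, stepped by 100 kb, with most unmatched peaks. The chromosome 8 stretch and the position along chromosomes were added with their values known. Members and measures were chosen with earlier results of these data known. Gene lists and sequences were not used, for want of a genome of this system. Overlap, gap, run and pileup code was tested on simulated data. Python 3.11.15, numpy 2.4.6, pandas 2.3.3, scipy 1.17.1 and matplotlib 3.10.9 were used.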

Additional observations from a re-analysis of the deposited data

How the results depend on the processing

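Of 163 values recomputed under other settings, 72 stayed within the counting interval (or, for a count, within 1.5 times) of the reported value, 90 moved beyond it and 1 reversed. The cause of these moves was not tested beyond what each setting leaves out. Counting stage 56 peaks within 100 bp as a match, or matching by summit, moved none of the values. Without the chromosome 2 cluster none moved either. That setting, the 2 on pileup, those on the width of the outer stretches and the one on isolated peaks alone were chosen after seeing the data. No paired analysis was possible because each stage had 1 library and no result comes from a test. Total depth is not known from these lists, and its part in the number of low peaks was not tested.

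When a stage 56 peak within 1 kb counted as a match, 55.2% of placed stage 61 peaks were unmatched. The median distance to stage 56 was then 250.4 kb and 51.0% were isolated, while 0% lay within 1 kb, which that setting fixes. With 50% of the peak to be covered for a match, 62.9% were unmatched. The median width was then 327 bp, area 93.4, pileup 189, distance to stage 56 185 kb and gap between unmatched peaks 163 kb, with 12.3% within 1 kb, 84.5% in runs of 3 or more and 53.0% on the lowest chromosome.

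Stage 61 peaks with a −log10 q of 2 or more were unmatched in 38.7% of cases, from 26.7% to 53.8% over chromosomes. Their median width was 461 bp, area 259, pileup 265 and gap 647 kb, with 2.59% within 1 kb of stage 56, 56.4% in runs and 62.9% isolated. All 580 unmatched peaks then left were at or above the smallest stage 56 pileup, which this cut-off fixes by itself. The outer share exceeded that of matched peaks by 8.57 percentage points. With a stage 61 area of 100 or more, 43.7% were unmatched (29.96% to 57.7% over chromosomes), with medians of 456 bp, area 202, pileup 236 and gap 456 kb. Of these, 3.49% were within 1 kb, 65.2% in runs and 59.7% isolated, and the outer excess was 10.5 points. The largest stage 61 peaks, as many as at stage 56, gave 41.9% (27.7% to 55.6%), medians of 474.5 bp, area 219, pileup 243 and gap 510.04 kb, 2.99% within 1 kb, 62.2% in runs, 60.8% isolated, 749 at the stage 56 level and an outer excess of 10.9 points.

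Holding both lists to an area of 100 left the unmatched share at 59.1% (56.9 to 61.2), unlike the cuts above on stage 61 alone. It gave medians of 456.5 bp, area 199, pileup 236, distance 425 kb and gap 317 kb, with 3.53% within 1 kb, 81.2% in runs and 57.4% isolated. Merging peaks within 1 kb gave 60.7% unmatched, a distance of 255 kb, a gap of 240.02 kb, 0.701% within 1 kb, 77.2% in runs, 58.7% isolated and an outer excess of 10.3 points. With both lists at a pileup of 177 or more, 48.6% were unmatched (36.1% to 61.6%), with medians of 384 bp, area 154, pileup 218 and gap 321 kb, 3.54% within 1 kb, 70.01% in runs and 53.5% isolated. That cut takes out only stage 61 peaks and leaves 2383 of them, since every placed stage 56 peak passes it. With both lists at 22.8 times background or more, 73.3% were unmatched (63.8% to 81.8%), with medians of 330.0 bp, area 97.1, pileup 191, distance 435 kb and gap 130.3 kb, 89.7% in runs, 45.5% isolated and 525 at the smallest stage 56 pileup then left. This cut takes out only stage 56 peaks and keeps all 3376 placed stage 61 peaks, so the unmatched share can only rise.

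Breaking runs also at stage 56 peaks left 76.2% of unmatched peaks in runs of 3 or more. Isolation distances of 20 and 100 kb gave 62.8% and 36.4% isolated. The outer excess of unmatched over matched peaks was 7.56 points for the outer 5% at each end, 24.4 points for the outer 20% and 10.3 points for the outer 10 Mb. Among isolated peaks alone it was -13.2 points.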
